A study of Mus musculus with 19 samples.

Results

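The transcripts of the mitochondrial genome were measured by RNA-seq in brain homogenate enriched for microglia, the resident immune cells of the brain, of transgenic and control mice. They were taken as all genes whose GENCODE M21 symbol starts with mt-, which gave 37 of the 49671 genes in the table: 13 mRNAs, 2 rRNAs and 22 tRNAs. Mice labelled HEM carry a human transgene driven by the murine Thy-1 promoter and located on the X chromosome. WT mice served as controls, and both genotypes are on the B6D2F1/J background. The 4 groups were HEM at 13 months of age (8 libraries), WT at 13 months (4), HEM at 3 months (4) and WT at 3 months (3), one mouse each. Sex is not given in the sources used here. Thy-1 cassettes are known to drive expression chiefly in neurons, not in microglia. Libraries are named by group and by the number in their title.

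The mitochondrial genome is a small circle present in many copies per cell. It is transcribed from both strands as long precursors, which are cut apart mostly at the tRNAs that punctuate them. Its mRNAs code for core subunits of respiratory complexes I, III and IV and of the ATP synthase, complex V, while its rRNAs and tRNAs serve the ribosomes inside the mitochondrion. All other subunits, and the proteins that copy, transcribe and translate the mitochondrial genome, come from nuclear genes, and complex II has nuclear subunits alone.

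A pair of features of the sequence bear on several values below. First, neighbouring genes overlap. mt-Atp8 and mt-Atp6, which code for 2 subunits of the ATP synthase, share 43 bases, 21.1% of mt-Atp8. The stretch around the shared bases is printed here from the GENCODE M21 transcripts (mm10, chrM:7907-7989, plus strand, 5′ to 3′), with the bases that lie in both genes in capitals.
mt-Atp8/mt-Atp6: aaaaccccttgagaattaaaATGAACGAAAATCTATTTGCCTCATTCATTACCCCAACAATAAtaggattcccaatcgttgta
Second, the nuclear genome holds a copy of part of the mitochondrial genome on chromosome 1, annotated as 7 unprocessed pseudogenes between positions 24611535 and 24616197 on the minus strand. Over the 4149 bases compared, the copy and the mitochondrial genes were identical at 99.83%, and 5 of the 7 pseudogenes had no mismatch. A pseudogene that had one was Gm28438, which differs from mt-Nd3 by T3C, counted from the first base of mt-Nd3. The first 60 bases of both are shown (chrM:9459-9518, plus strand, and chr1:24613060-24613119, minus strand), with the differing base in capitals.
mt-Nd3: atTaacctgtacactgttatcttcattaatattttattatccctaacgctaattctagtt
Gm28438: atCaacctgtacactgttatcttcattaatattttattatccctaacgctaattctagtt
The upstream end of the copy lies within mt-Co1. Its first bases are where 6 of the 7 mismatches fall: T1056A, C1057T, A1059G, A1060G, C1062A and A1066T, counted from the first base of mt-Co1. The 60 bases at that edge are shown (chrM:6381-6440, plus strand, and chr1:24616138-24616197, minus strand), again with differing bases in capitals.
mt-Co1: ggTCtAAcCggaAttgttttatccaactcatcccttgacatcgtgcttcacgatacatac
Gm29216: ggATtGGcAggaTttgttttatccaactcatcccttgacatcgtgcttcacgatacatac
mt-Nd4l, which codes for a small membrane subunit of complex I, is printed whole (chrM:9877-10173, plus strand) because it is among the mRNAs that lie inside the copy. Its first 294 bases are identical to Gm10222, so there is no capital in it.
mt-Nd4l: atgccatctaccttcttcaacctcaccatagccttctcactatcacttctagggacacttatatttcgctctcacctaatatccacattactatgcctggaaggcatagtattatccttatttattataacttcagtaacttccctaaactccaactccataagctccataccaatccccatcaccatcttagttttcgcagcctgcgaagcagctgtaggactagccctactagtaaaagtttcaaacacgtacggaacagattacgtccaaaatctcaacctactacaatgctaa
Only 2 tRNAs reached the level needed for a test. They carry proline (mt-Tp, chrM:15356-15422) and cysteine (mt-Tc, chrM:5192-5257), both lie on the minus strand, and their anticodons are in capitals.
mt-Tp: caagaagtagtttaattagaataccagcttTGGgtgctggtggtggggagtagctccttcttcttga
mt-Tc: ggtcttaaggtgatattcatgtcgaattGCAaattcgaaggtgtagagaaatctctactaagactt

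Values are gene counts that the authors divided by 1 size factor per library, called normalized counts here; K stands for 1000 normalized counts and M for 1000000 reads. Libraries held 63.3 to 95.8 M reads in HEM and 93.2 to 124.5 M in WT at 13 months, and 74.7 to 112.9 M in HEM and 83.0 to 106.8 M in WT at 3 months. The mitochondrial genes took 2.36 to 11.3 M of these per library. All 12 microglia markers were detected, with a mean log2 level of 14.59 to 16.10 across the libraries. Markers of other cells were also present, at 13.12 to 14.85 for astrocytes and 12.77 to 15.21 for endothelium. Choroid plexus and ependyma markers were at 13.55 to 14.87. The mitochondrial values therefore come from a mixture of cells. Neutrophil markers were higher in HEM than in WT at 13 months for 12 of 12 genes tested, where 4.87% of all genes were. So were 13 of 15 immediate early genes that respond to tissue handling and 3 of 8 erythroid markers. The immediate early list also holds the heat shock genes Hspa1a and Hspa1b. Choroid plexus and ependyma markers were lower for 7 of 10, where 7.3% of all genes were. Of the 19 libraries, 3 are called libraries that stood apart, picked after scores on principal components of all tested genes were seen. On the first component they were replicate 1 of HEM at 13 months (130.3) and replicate 3 of HEM at 3 months (68.4). On the third it was replicate 11 of HEM at 13 months (104.5). Libraries not picked also had large scores. Replicate 9 of WT at 13 months was at -63.2 on the first and replicate 13 of HEM at 13 months at 76.6 on the second. In bulk samples such as these, fewer cells of a type and less RNA per cell cannot be told apart.

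Transcripts of the mitochondrial genome made up a larger share of the libraries at 13 than at 3 months, and the share spread most widely in HEM at 13 months. The 13 mRNAs together took 6.48% ± 2.90 (SD, n = 8) of the column total in HEM at 13 months and 7.66% ± 1.51 (n = 4) in WT at 13 months. At 3 months they took 4.09% ± 0.64 (n = 4) in HEM and 3.66% ± 0.54 (n = 3) in WT. All 37 genes together took 7.13% ± 3.22, 8.35% ± 1.72, 4.45% ± 0.79 and 3.95% ± 0.59 in the same order of groups. These sums are described without a test.

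By library, the mRNA share in HEM at 13 months had its lowest value of 3.38% in replicate 13, a median of 6.01% and its highest value of 12.2% in replicate 7. In WT at 13 months it was 7.20%, 9.87%, 7.14% and 6.45% in replicates 6, 7, 8 and 9. Of the HEM libraries, 1 lay above the WT range, 2 lay within it and 5 lay below it, and 3 of the 8 fell within the range of the 3-month libraries. The highest HEM library had 3.60 times the share of the lowest, against 1.53 times in WT at 13 months. At 3 months the share was 3.66%, 4.93%, 4.24% and 3.53% in HEM replicates 1, 3, 4 and 7, and 3.42%, 4.28% and 3.27% in WT replicates 1, 3 and 5. The 2 genotypes overlapped at that age, and every WT library at 13 months lay above every library at 3 months.

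**Figure D1:**
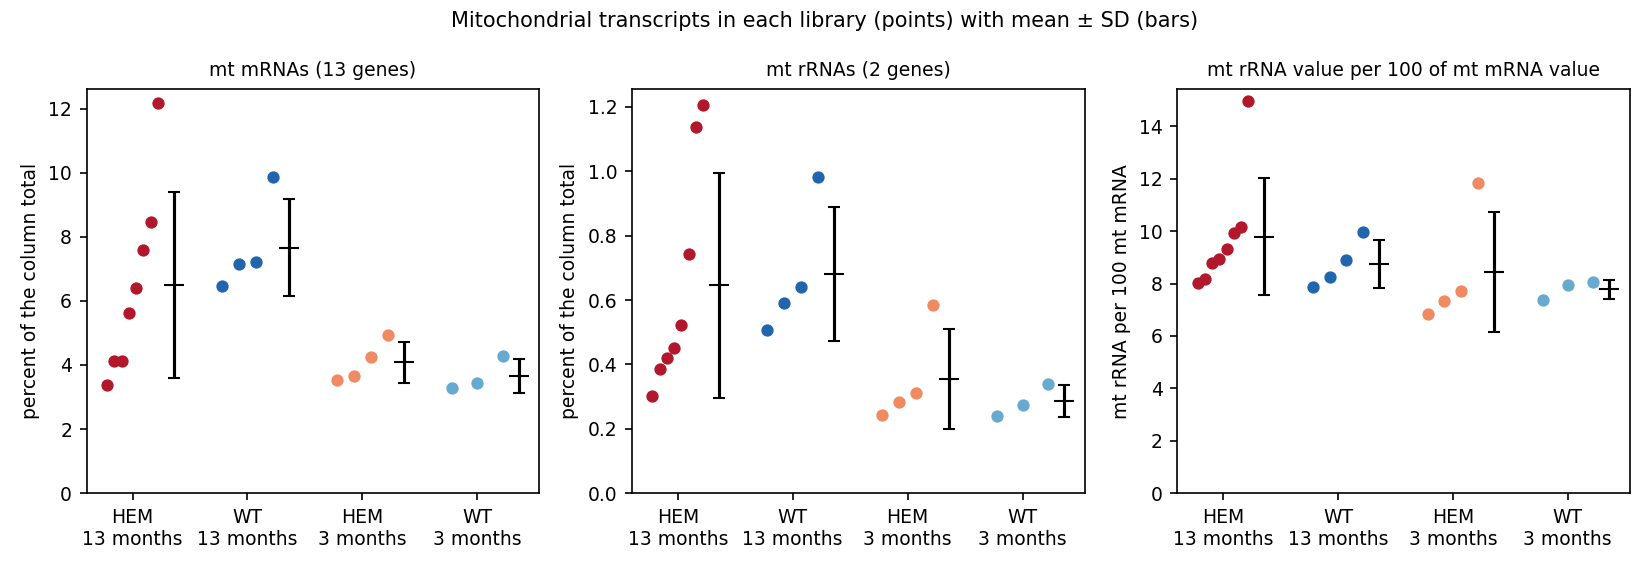
Share of the column total taken by the mitochondrial mRNAs (left) and rRNAs (middle), and rRNA value per 100 of mRNA value (right), with 1 point per library and bars for mean ± SD of each group. The mRNA share runs between 3.38% and 12.2% in HEM at 13 months, and the 2 highest points of the right panel are HEM libraries at 15.0 and 11.8.

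The rRNAs of the small and large mitochondrial ribosomal subunits, mt-Rnr1 and mt-Rnr2, followed the mRNAs in most libraries. Their share of the total averaged 0.646% ± 0.350 in HEM against 0.681% ± 0.209 in WT at 13 months, and 0.355% ± 0.155 in HEM against 0.285% ± 0.050 in WT at 3 months. Against 100 of mRNA value they reached 8.04 to 15.0 in HEM at 13 months, 7.88 to 9.95 in WT at 13 months, 6.85 to 11.8 in HEM at 3 months and 7.38 to 8.04 in WT at 3 months. The values of 15.0 and 11.8 came from replicate 1 of HEM at 13 months and replicate 3 of HEM at 3 months, 2 of the 3 libraries that stood apart. Without them the highest values were 10.2 in HEM at 13 months and 7.73 in HEM at 3 months. These libraries also had the highest mean log2 level of neuron markers, 13.27 and 12.93, against 10.12 to 12.00 in the other 17. They were likewise the highest for oligodendrocyte markers, at 13.83 and 13.47, against 11.68 to 13.43 in the other 17. For astrocyte markers replicate 1 of HEM at 13 months was the highest, at 14.85, and replicate 3 of HEM at 3 months was at 14.01. The part of these cell types in the ratio was not tested. Whether rRNA was removed or mRNA selected before sequencing is not given in the sources used here.

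The question of the genotype comparison at 13 months was whether mitochondrial genome transcripts differ in aged mice that carry the transgene. Of the 17 members tested, 0 passed, where 12.2% of all 23973 genes tested did (limma on log2 of the value + 1, all 4 groups in 1 model, Benjamini-Hochberg adjusted p under 0.05 over all genes). At an unadjusted p under 0.05 the count was also 0, where 24.9% of all genes passed, and DESeq2, edgeR and limma voom each gave 0 on both counts. The unadjusted count rested on 1 library: without replicate 7 of HEM at 13 months, 7 of the 17 were lower in HEM at an unadjusted p under 0.05, where 13.8% of all genes were. The lowest adjusted p of the members was then 0.0579, for mt-Cytb, and 0 passed. The estimates ran between -0.54 and 0.02 on the log2 scale, with a median of -0.29 beside 0.03 for all genes tested. They were below 0 for 16 of the 17, although mt-Nd3 and mt-Nd4l lay above 0 in DESeq2, edgeR and voom and under scaling to the total without mitochondrial transcripts. The 95% interval of each of the 17 held 0, and that of 16 also held -0.58, the median of the nuclear-encoded subunits described below. The interval of mt-Atp8, from -0.52 to 0.56, did not hold it.

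Among the complex I subunits, mt-Nd1 had 320 K at the lowest, 681.4 K at the median and 1470 K at the highest in HEM at 13 months, against 860.9, 1357, 884.3 and 810.3 K in WT replicates 6 to 9. Of the HEM libraries 5 lay below the WT ones, 2 within their range and 1 above it (log2 change -0.54 ± 0.31 SE, adjusted p = 0.299, limma). mt-Nd4 had the smallest p of the members, with -0.52 ± 0.28 and an adjusted p of 0.266. mt-Nd2 was at -0.51 ± 0.29, mt-Nd5 at -0.42 ± 0.28 and mt-Nd6, the only mRNA on the minus strand, at -0.25 ± 0.28. Estimates for the 2 complex I genes inside the nuclear copy were near 0, with -0.01 ± 0.28 for mt-Nd3 and -0.04 ± 0.30 for mt-Nd4l.

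mt-Cytb, a catalytic subunit of complex III, had 549.9 K at the lowest, 966.7 K at the median and 2082 K at the highest in HEM at 13 months. In WT replicates 6 to 9 it had 1137, 1885, 1265 and 1248 K (-0.49 ± 0.27, adjusted p = 0.279). The HEM libraries again enclosed the WT range, with their median under it.

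mt-Co1 codes for the subunit of complex IV that reduces oxygen. It had the highest level of all members, with 1047 K at the lowest, 1774 K at the median and 4112 K at the highest in HEM at 13 months, against 2275, 3279, 2315 and 2109 K in WT replicates 6 to 9 (-0.42 ± 0.27, adjusted p = 0.374). mt-Co2 and mt-Co3, the other complex IV subunits, were at -0.21 ± 0.28 and -0.21 ± 0.27. Of the ATP synthase subunits, mt-Atp6 was at -0.29 ± 0.26 and mt-Atp8 at 0.02 ± 0.26, the only estimate of the 17 above 0 in this fit. The rRNAs were at -0.39 ± 0.39 for mt-Rnr1 and -0.28 ± 0.33 for mt-Rnr2. In each of the 17 members the HEM and WT libraries overlapped, where 2.69% of all genes were higher and 3.98% lower in HEM without overlap.

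Neutrophil, erythroid and immediate early markers were higher in HEM beside these estimates and choroid plexus and ependyma markers lower, as given above. The choroid plexus and ependyma list had a median log2 change of -0.94 and a mean log2 level of 13.55 to 14.43 in HEM and 14.84 to 14.87 in WT, without overlap. The part of these cells in the estimates was not tested. With the neutrophil and erythroid level as a covariate, limma called 0 of the 17, with 0 at an unadjusted p under 0.05. Both counts were already 0 without it. The erythroid level did not overlap between the genotypes, so that fit cannot separate it from genotype. Without the 3 libraries that stood apart both counts were also 0. With the neuron level as a covariate limma called 0, with 1 lower in HEM at an unadjusted p under 0.05. The share of all genes in these alternative fits is not given here.

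The members largely shared their highest and lowest libraries. Replicate 7 of HEM at 13 months was the highest of its group in 16 of 16 members other than mt-Tc, and replicate 13 the lowest in 14. In WT at 13 months, replicate 7 was the highest in 16 of the 16. Without replicate 7 of HEM, the estimate for mt-Co1 was the lowest of those that left out 1 library, at -0.59.

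At 3 months limma called 0 of the 17 members between HEM and WT, where 0% of all 23973 genes passed. At an unadjusted p under 0.05 limma gave 0 members, where 3.85% of all genes passed, and DESeq2, edgeR and voom gave 1 each, mt-Tc, while calling 0. The estimates lay above 0 for 16 of the 17, between 0.09 and 0.33, with a median over all 17 of 0.18. mt-Nd5, the largest of the complex I subunits coded there, was the only member whose groups did not overlap, where 3.08% of all genes tested did not overlap in that direction. It had 320.4, 359.6, 330.3 and 309.1 K in HEM replicates 1, 3, 4 and 7, against 248.8, 278.3 and 277.9 K in WT replicates 1, 3 and 5. Each HEM library was above each WT library (0.30 ± 0.35 SE, adjusted p = 0.99998, limma).

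mt-Tc ran the other way. It had 34.9, 56.2, 15.3 and 29.4 normalized counts in HEM replicates 1, 3, 4 and 7, against 138.3, 47.6 and 43.0 in WT replicates 1, 3 and 5 (-1.07 ± 0.53, adjusted p = 0.99998). The groups overlapped, and 1 WT library held the highest value of the series.

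The members other than mt-Tc had higher values at 13 than at 3 months in WT, without passing the adjusted threshold in the limma fit. In WT, 16 of the 17 members had no overlap between the ages, each higher at 13 months, where 8.83% of all genes tested did so. All 16 had an unadjusted p under 0.05, where 9.18% of all genes did so in that direction, and 0 passed after adjustment, where 0.709% of all genes did. The adjusted p of these 16 ran between 0.058 and 0.149. The count rested on the tool: DESeq2 called 14, limma voom with quality weights 11, a limma fit of the 2 groups alone 3, and edgeR 0. Leaving replicate 7 of HEM at 13 months out of the 4-group fit, which changes the shared spread and not the WT values, gave 9. The share of all genes called in these other fits is not given here, so their counts cannot be set against it. The median log2 difference over all 17 members was 1.17, beside -0.01 for all genes tested.

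By role, the largest estimate in WT belonged to mt-Rnr1, with 170.8, 310.8, 162.8 and 149.5 K at 13 months in replicates 6 to 9, against 68.9, 81.5 and 56.3 K at 3 months in replicates 1, 3 and 5 (1.48 ± 0.48, adjusted p = 0.127). mt-Rnr2 was at 1.28 ± 0.41. The lowest 13-month library of mt-Rnr1 was above the highest 3-month one.
Among the mRNAs, mt-Atp6 had the smallest p, with 45.2, 65.8, 37.0 and 44.5 K at 13 months, against 18.3, 22.1 and 16.8 K at 3 months (1.31 ± 0.32, adjusted p = 0.0581). mt-Nd5 was at 1.30 ± 0.35, mt-Co1 at 1.22 ± 0.34 and mt-Cytb at 1.11 ± 0.34. The smallest estimates among the mRNAs were 1.01 ± 0.35 for mt-Nd3 and 0.98 ± 0.32 for mt-Atp8, and for both the 2 ages did not overlap.
mt-Tc was the exception at -0.31 ± 0.53, with 29.4, 62.5, 93.4 and 45.5 normalized counts at 13 months and overlapping ages.

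Marker lists also moved with age in WT. Immediate early genes fell for 8 of 15, where 59 of all 23973 genes tested fell. Their median log2 change was -1.87, with a mean log2 level of 11.67 to 13.58 at 13 months against 14.14 to 15.54 at 3 months. Of the other marker lists, limma called 1 gene, an astrocyte marker that was higher at 13 months, where 0.463% of all genes were. The estimates were negative for 12 of 12 neutrophil, 8 of 8 erythroid and 8 of 8 endothelial markers, with medians of -1.15, -1.17 and -1.12. Astrocyte markers had a median of 0.60, and choroid plexus and ependyma markers also 0.60. The part of these lists in the age estimates was not tested.

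In HEM all 17 members were above 0 in that contrast, with a median of 0.64 and a range between 0.44 and 1.08. An unadjusted p under 0.05 was reached by 10, where 8.9% of all genes did so in that direction. That count was 6 without replicate 1, 7 or 12 of HEM at 13 months or replicate 1 or 7 of HEM at 3 months. It was 16 without replicate 13 of HEM at 13 months. The share of all genes in these reduced fits is not given here, so the counts cannot be set against it. Limma called 0 of them, where 1.62% of all genes passed, edgeR called 0, and DESeq2 and voom called 6 each. The share of all genes called by DESeq2 and voom is not given here. mt-Nd4l alone had no overlap between the ages, where 1.44% of all genes were higher without overlap. It had 2.85 K at the lowest, 3.52 K at the median and 9.49 K at the highest in HEM at 13 months, against 1.53, 2.73, 1.92 and 1.77 K in HEM at 3 months (1.08 ± 0.30, adjusted p = 0.0669). For the other 16 members the ages overlapped. Of the marker lists, 3 of 8 astrocyte markers rose with age in HEM, where 224 of all 23973 genes tested rose. Their median was 0.57, with a mean log2 level of 14.10 to 14.85 at 13 months against 13.12 to 14.01 at 3 months. Also, 2 of 8 erythroid markers rose and 1 of 8 endothelial markers fell, where 164 of all genes fell, with medians of 0.16 and -0.95. Neutrophil markers had positive estimates for 12 of 12, with a median of 1.64 and 0 called, and neuron markers a median of -0.82 with 0 called. Their part in the age estimates was not tested.

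The age estimates and the genotype estimates share libraries, so their signs are not independent of each other. The difference of the genotype effects between the ages was tested on its own and was called for 0 of the 17 members, where 0% of all genes passed. At an unadjusted p under 0.05 the count was 0 in limma, edgeR, DESeq2 and voom, where 14.8% of all genes passed in limma. Without replicate 7 of HEM at 13 months it was 5 in limma, each with a negative difference, where 8.8% of all genes were so, and the lowest adjusted p of the members was 0.21. The estimates lay between -0.72 and 0.78, and the intervals of all 17 held 0. The age differences were therefore not shown to differ between the genotypes.

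**Figure D2:**
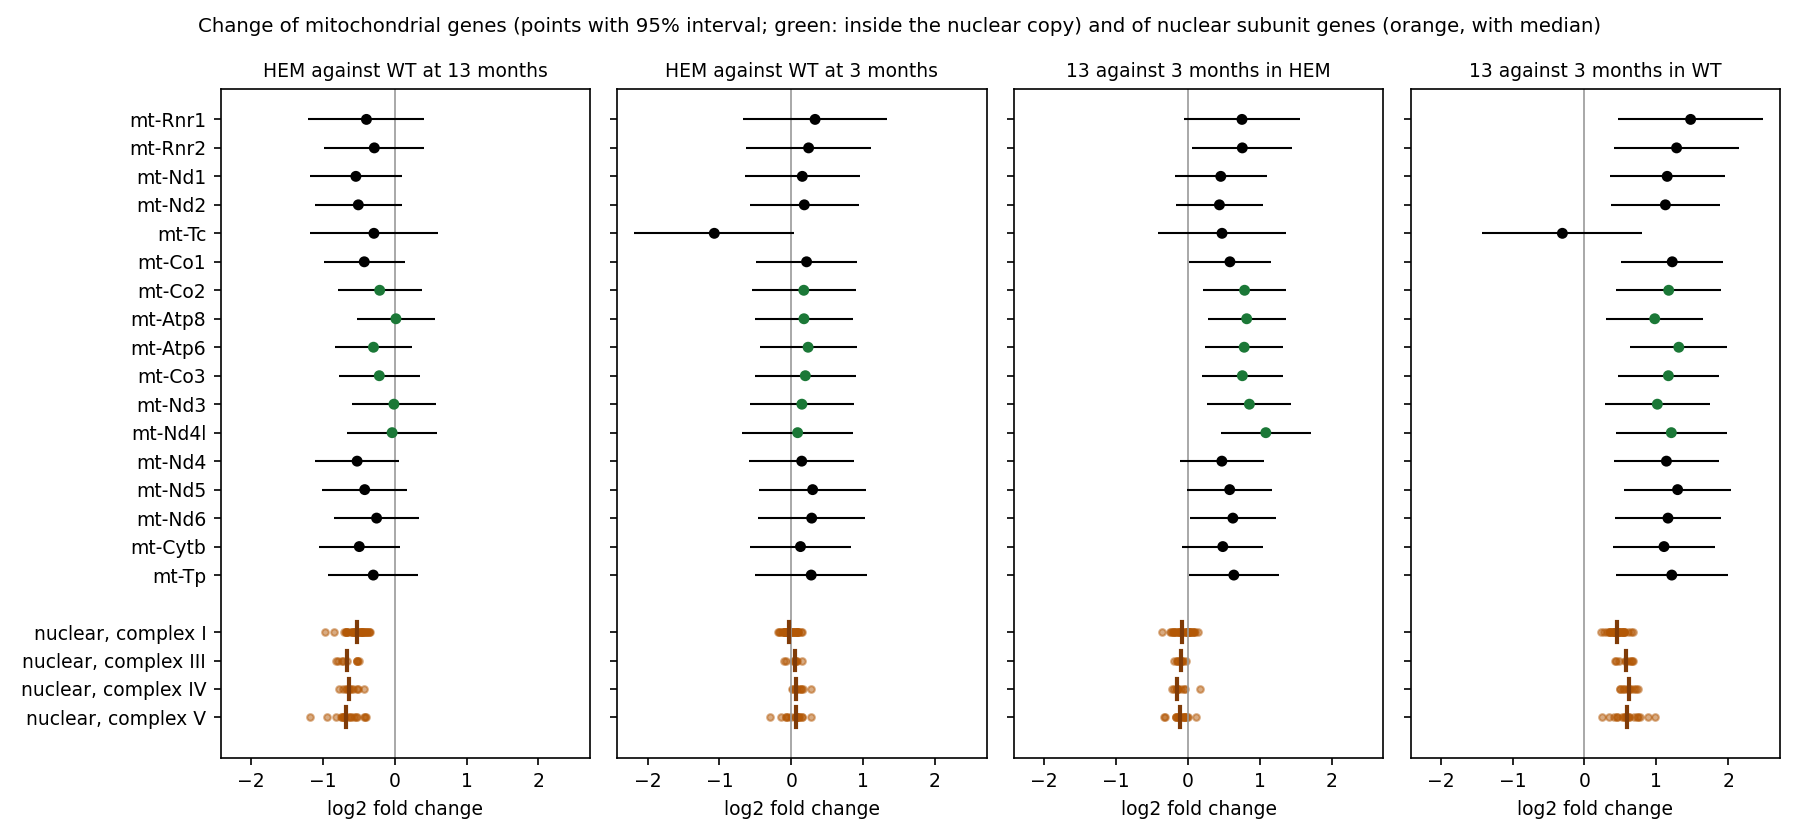
Log2 fold change of the 17 tested mitochondrial genes (points, with 95% intervals; green marks the 6 mRNAs inside the nuclear copy) and of the nuclear genes for subunits of complexes I, III, IV and V (orange points, bars at the median) in 4 comparisons. All 17 intervals cross 0 in both comparisons of HEM against WT, the members sit around 1.17 in WT by age, and the nuclear subunits sit around -0.58 in HEM against WT at 13 months.

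The tRNAs were scarce, and how library fragments were sized is not given in the sources used here. Together they took 0.00575% ± 0.00279 of the total in HEM and 0.00610% ± 0.00166 in WT at 13 months, and 0.00333% ± 0.00054 in HEM and 0.00288% ± 0.00049 in WT at 3 months. mt-Tp made up 91.5% to 99.4% of that in the 19 libraries. It had 2326 normalized counts at the lowest, 4539 at the median and 10212 at the highest in HEM at 13 months, against 5618, 7754, 5119 and 3789 in WT at 13 months. At 3 months it had 2581, 3095, 3372 and 2334 in HEM and 2192, 2787 and 2051 in WT. Its estimates followed those of the mRNAs, with -0.30 ± 0.30 for HEM against WT at 13 months and 1.21 ± 0.37 for age in WT. Its gene, printed above, lies on the minus strand, and without a stated strand setting its reads cannot be told apart from other RNA of that stretch. The same holds for mt-Nd6 and mt-Tc.

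The other 20 tRNAs did not reach 10 normalized counts in 3 libraries and were not tested. Of them 6, mt-Tf, mt-Tw, mt-Ty, mt-Tk, mt-Tr and mt-Ts2, had 0 reads in all 19 libraries, which allows a share of up to 2.41e-06% to 4.74e-06% per library for counting error only (3 reads of the total). The other 14 had reads somewhere. The 3 that reached 10 in a library were mt-Tq at 12.7, mt-Te at 12.2 and mt-Tm at 10.6, each in 1 library, and were singled out after their values were seen.

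Per kb of gene, the 13 mRNAs lay in 2 ranges of level that did not overlap in any library. The upper range held mt-Co1 at 1162 K per kb (mean of 19 libraries), mt-Cytb at 856.6, mt-Nd1 at 716.5, mt-Nd2 at 434.2, mt-Nd4 at 304.3, mt-Nd6 at 284.0 and mt-Nd5 at 265.2. The order of the first 4 held in 19 of 19 libraries, while mt-Nd4 exceeded mt-Nd6 in 13 and mt-Nd6 exceeded mt-Nd5 in 14, so the order of these neighbours was not the same in every library. Below them came mt-Rnr2 at 206.9 and mt-Rnr1 at 150.4 K per kb. The lower range held the 6 mRNAs that lie inside the copied stretch: mt-Co2 at 66.9, mt-Atp6 at 52.0, mt-Co3 at 42.5, mt-Atp8 at 17.6, mt-Nd4l at 12.0 and mt-Nd3 at 9.52 K per kb. In 19 of 19 libraries, each of these 6 was below each of the other 7 mRNAs, and the lowest of the 7 exceeded the highest of the 6 by 2.93 to 4.84 times. mt-Nd4l and mt-Nd4 overlap by 7 bases and are known to lie on 1 transcript, yet stood at 12.0 and 304.3 K per kb.

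**Figure D3:**
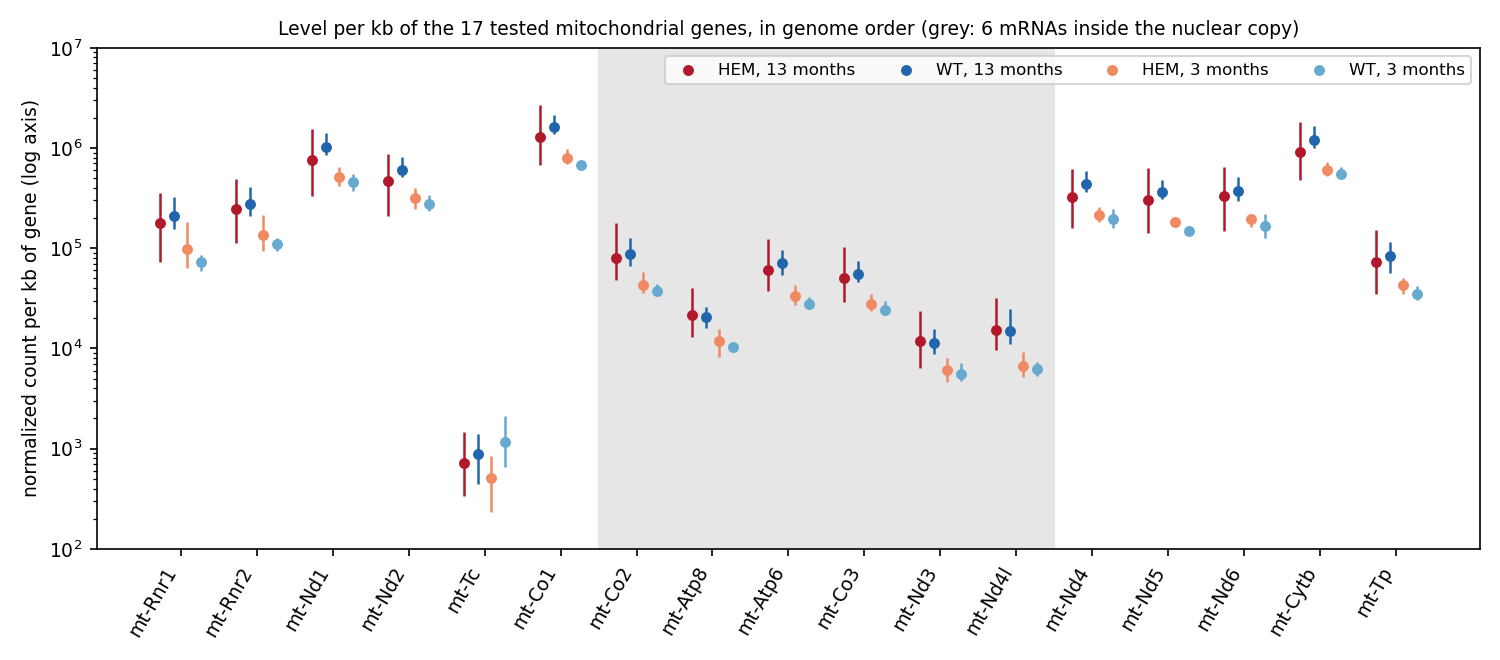
Normalized count per kb of gene (log axis) for the 17 tested members in genome order, with 1 point for the mean and a line for the range of each group; grey marks the 6 mRNAs inside the nuclear copy. The 6 sit between 9.52 and 66.9 K per kb on average and the other 7 mRNAs between 265.2 and 1162.

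Of the 7 pseudogenes of the copy, 5 were listed with values close to those of their mitochondrial counterparts. Of the summed value of both, the copy held 42.5% to 48.4% for mt-Co2, 51.3% to 61.1% for mt-Atp6, 49.2% to 54.1% for mt-Co3, 55.2% to 66.0% for mt-Nd3 and 48.7% to 58.8% for mt-Nd4l over the 19 libraries. Gm10925 was above mt-Atp6 and Gm28438 above mt-Nd3 in 19 of 19. For mt-Co1 and mt-Nd4, of which the copy covers 31.8% and 63.6%, it held 1.25% to 2.18% and 3.20% to 6.02%. mt-Atp8 has no annotated pseudogene in the copy. How reads that match both places were counted is not given in the sources used here, so the levels of the 6 mRNAs inside the copy are uncertain. The same holds for mt-Co1 and mt-Nd4, which the copy covers in part, and for their place in the order per kb. Summed over the 5 pairs, the copy held 51.1% ± 0.8 in HEM and 51.4% ± 2.0 in WT at 13 months, and 51.7% ± 0.5 in HEM and 52.8% ± 0.5 in WT at 3 months. With the reads of the copy added to the members, limma called 0 of the 17 in each comparison, and 16 in WT and 10 in HEM had an unadjusted p under 0.05 by age.

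As a share of mitochondrial mRNA, which does not depend on library scaling, each member can be set beside the others of its library. mt-Co1, mt-Cytb and mt-Nd1 together made up 66.8% to 69.7% in all 19 libraries. The 6 copied mRNAs made up 2.70% ± 0.38 in HEM and 2.28% ± 0.20 in WT at 13 months, and 2.25% ± 0.13 in HEM and 2.23% ± 0.10 in WT at 3 months. In HEM at 13 months the share was 2.10%, 2.21% and 2.61% in the 3 deepest libraries, of at least 80.1 M reads, and between 2.79% and 3.20% in the 5 of at most 72.2 M. Within that group the deeper libraries had the lower shares. At 13 months the HEM libraries held 63.3 to 95.8 M reads and the WT libraries 93.2 to 124.5 M. The part of depth in the difference was not tested.
The only mRNA whose share did not overlap between genotypes at 13 months was mt-Atp8, with 0.0723% at the lowest, 0.0776% at the median and 0.100% at the highest in HEM, against 0.0707%, 0.0557%, 0.0501% and 0.0596% in WT replicates 6 to 9. At 3 months its share was 0.0550% to 0.0797% in HEM and 0.0622% to 0.0724% in WT, which overlap. It was picked from the 13 mRNAs after their shares were seen, and such shares were not computed for all genes. The nearest libraries at 13 months stood at 0.0723% and 0.0707%. mt-Atp8 also lies in the copied stretch and shares bases with mt-Atp6.

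**Figure D4:**
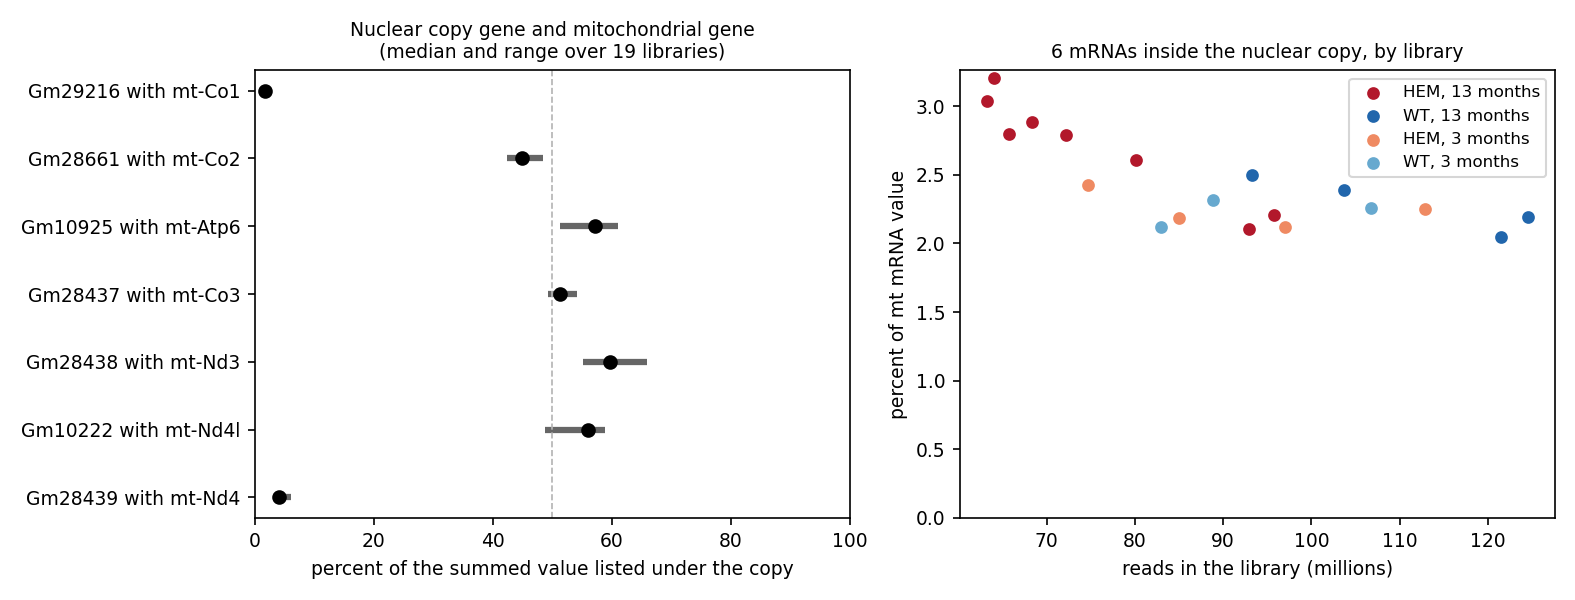
Left, percent of the summed value of a mitochondrial gene and its chromosome 1 copy that is listed under the copy, as median and range over the 19 libraries, with a dashed line at 50. Right, percent of mitochondrial mRNA value from the 6 copied mRNAs against M reads per library; the 5 shallowest HEM libraries at 13 months sit at 2.79% or more.

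The nuclear-encoded partners of these transcripts were also read from the same fit. Of 74 tested nuclear genes for subunits of complexes I, III, IV and V, 73 fell in HEM at 13 months, where 7.3% of all genes did so, with a median log2 change of -0.58. By complex, 35 of 36 fell for complex I, 9 of 9 for complex III, 11 of 11 for complex IV and 18 of 18 for complex V. Complex II, which has no subunit coded in the mitochondrial genome, had 4 of 4 lower. Ndufa1, an accessory subunit of complex I, fell by 0.97 ± 0.10 SE (adjusted p = 0.000554, limma) and Atp5g1, which codes for the rotor ring of the ATP synthase, by 1.18 ± 0.17 (adjusted p = 0.0016). Ndufb11 of complex I fell by 0.66 ± 0.09 and Atp5h, of the stalk of the ATP synthase, by 0.82 ± 0.11. Uqcr11 and Uqcrh of complex III fell by 0.79 ± 0.12 and 0.66 ± 0.11, and Cox6c and Cox4i1 of complex IV by 0.72 ± 0.11 and 0.66 ± 0.11. Sdha and Sdhc of complex II fell by 0.52 ± 0.08 and 0.66 ± 0.10. For 31 of the 74 the groups did not overlap, where 3.98% of all genes were lower without overlap. The genes were listed with earlier results of these data known, and their fall is not independent evidence.

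The spread of the estimates differed between the 2 genomes. The SE of the 74 nuclear genes had a median of 0.11, against 0.28 for the 17 members. As SD over libraries, the mean log2 level of the 74 was 12.84 ± 0.16 for HEM against 13.43 ± 0.22 for WT at 13 months. At 3 months it was 12.93 ± 0.02 for HEM against 12.91 ± 0.14 for WT. At 13 months HEM ranged between 12.62 and 13.15 and WT between 13.16 and 13.68. For the nuclear subunits the WT libraries at 13 months lay above all others, whereas for the mitochondrial mRNA share 5 of the 8 HEM libraries at 13 months also lay above the 3-month range. Replicate 7 of HEM, with the highest mitochondrial share of 12.2%, also had the highest nuclear level of its group, 13.15, and replicate 13, with the lowest share, was at 12.89.

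Immediate early genes had a mean log2 level of 13.83 to 15.24 in HEM and 11.67 to 13.58 in WT at 13 months, without overlap. Neutrophil markers ranged between 11.56 and 14.90 in HEM and between 10.43 and 12.12 in WT. Erythroid markers ranged between 13.30 and 14.80 in HEM and between 12.05 and 13.21 in WT, without overlap. Choroid plexus and ependyma markers, at 13.55 to 14.43 in HEM and 14.84 to 14.87 in WT, were lower in every HEM library, as the nuclear subunits were. With the neutrophil and erythroid level as a covariate, limma called 0 of the 74 nuclear genes, and without the 3 libraries that stood apart it called 70. The erythroid level did not overlap between the genotypes, so the covariate fit cannot separate it from genotype. The share of all genes called in that fit is not given here. The part of handling, other cells or depth in the fall was not tested.

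At 3 months 0 of the 74 nuclear genes were called in HEM against WT, by limma also 0 at an unadjusted p under 0.05, with a median of 0.04. By age in WT, 15 rose, where 0.463% of all genes did so, with a median of 0.51 against 1.17 for the 17 members. By age in HEM 0 were called, 6 had an unadjusted p under 0.05, each lower, where 7.68% of all genes did so in that direction, and the median was -0.09 against 0.64 for the members. The 2 sets of genes therefore had medians of opposite sign in that contrast, a difference that was not tested. The count of 15 rested on single libraries: it was 0 without replicate 7 or 9 of WT at 13 months or any 1 of the 3 WT replicates at 3 months, and up to 52 when another library was left out.

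**Figure D5:**
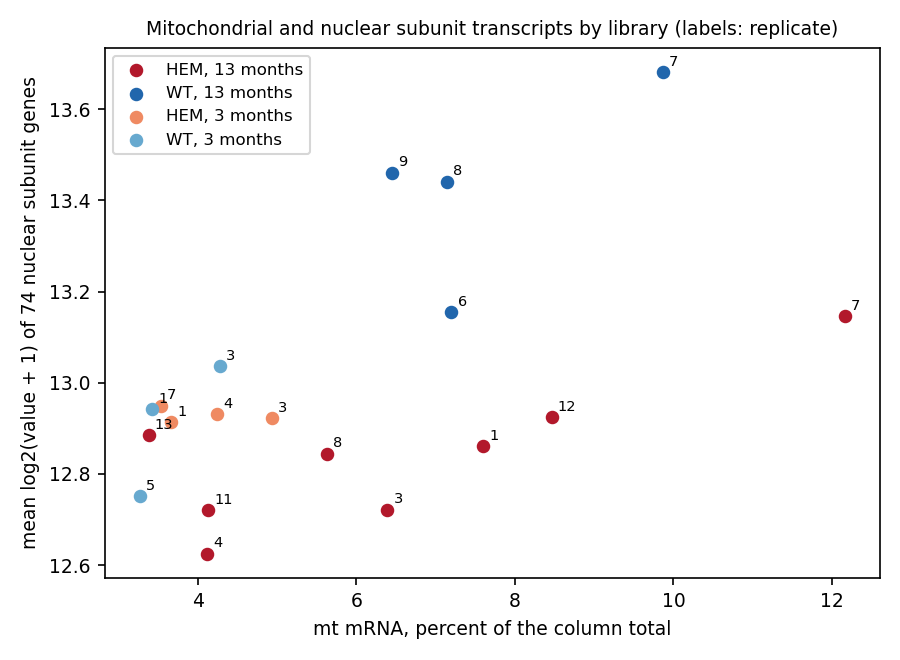
Mitochondrial mRNA as percent of the column total (horizontal) and mean log2(value + 1) of the 74 nuclear subunit genes (vertical), with 1 point per library numbered by replicate. WT libraries at 13 months sit at 13.16 or above, all HEM libraries at 13 months sit at 13.15 or below, and the 2 groups overlap along the horizontal axis.

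The proteins that copy, transcribe, process and translate the mitochondrial genome are also coded in the nucleus. Of 83 such genes tested, 1 rose, where 4.87% of all genes rose, and 9 fell in HEM at 13 months, where 7.3% of all genes fell, with a median of -0.04. A count of 9 in 83 is near that share. With the neutrophil and erythroid level as a covariate limma called 0 of the 83 lower, in a fit that cannot separate the erythroid level from genotype. In the sublists below, falls are read against the same 7.3% and the rise against 4.87%. Among transcription factors of the mitochondrial genome, 2 of 11 fell. These were Tfb2m, which melts the promoter for the mitochondrial RNA polymerase, by 0.31 ± 0.09 (adjusted p = 0.0397), and Mrpl12, a ribosomal protein that also binds that polymerase, by 0.49 ± 0.11 (adjusted p = 0.00748). The polymerase Polrmt was at -0.08 ± 0.08 (adjusted p = 0.59) and Tfam, which packs and helps transcribe the genome, at -0.12 ± 0.06 (adjusted p = 0.234). Among the replication genes 1 of 14 rose, Polg2, the accessory subunit of the mitochondrial DNA polymerase, by 0.54 ± 0.16 (adjusted p = 0.0316).
Of 30 RNA processing genes 4 fell, among them Hsd17b10, a subunit of the RNase P that frees the 5′ ends of mitochondrial tRNAs, by 0.44 ± 0.08, and Rexo2, which degrades short RNA fragments, by 0.35 ± 0.07. Of 28 translation genes 3 fell, with Fars2, which charges the phenylalanine tRNA, by 0.78 ± 0.14 and Tufm, the elongation factor, by 0.42 ± 0.08. No gene of these lists was called at 3 months or by age in either genotype by limma. At an unadjusted p under 0.05 the counts were 1 at 3 months, 11 by age in WT, where 15.5% of all genes passed, and 10 by age in HEM, where 16.6% did.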

How the data were processed

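RNA-seq of 19 libraries was used, each 1 mouse. Extraction used an AllPrep kit and library preparation an NEBNext Ultra II RNA kit, per the labels' protocols. The submitters' processing notes name featureCounts, HISAT2, Trimmomatic, DESeq2 and the build mm10. Versions, roles, strand and multiple-mapping settings are not given in the sources used here. The authors deposited a signal, namely counts per gene divided by 1 size factor per library, as read from the values (100% whole multiples of 1 step at a tolerance of 0.01). All 19 columns of the series table equal 1 library file each.

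Symbols, positions, lengths and printed sequences came from GENCODE M21 (mm10). Genes that reached 10 in 3 or more libraries were tested, 23973 in all. Limma 3.58.1 in R 4.3.3, with an intensity trend and robust variances, was fitted to log2(value + 1) over all 4 groups and tested on both sides. p-values were Benjamini-Hochberg adjusted over all genes tested and called under 0.05. Fold changes are on that log2 scale, so they understate changes of low genes. edgeR 4.0.16, DESeq2 1.42.0 and voom were run as alternatives, the count tools on the recovered reads, with other scalings, filters, covariates and each library left out. The step was tested on simulated data. Shares are sums over the column total, with no test. More reads give less counting error, and the p-values set each group difference against the spread between libraries, each of 1 mouse.

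All members were described: every mRNA and rRNA and the tRNAs passing the filter are named, and per nuclear list up to 2 called genes of smallest p in each direction, with Polrmt, Tfam and the untested tRNAs added after their values were seen. Members and lists were chosen with earlier results of these data known. Replicate numbers were not treated as pairs. The gene of the transgene is not reported here.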

Additional observations from a re-analysis of the deposited data

Results flagged for a closer look

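In groups of 4 to 10 libraries, a library whose gap to its nearest neighbour was a large part of the range (Dixon's criterion at 95%) was looked for in 114 sets of values, and 11 sets held one; chance alone gives about 1 in 20. The causes were not tested.

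Replicate 1 of HEM at 13 months had 15.0 of mitochondrial rRNA value per 100 of mRNA value and an mt-Nd4 share of mitochondrial mRNA of 9.27%, both far above its group. Replicate 7 of HEM at 13 months was far above its group for mt-Co1, at 4112 K (K is 1000 normalized counts), and mt-Co2, at 123.2 K. Replicate 7 of WT at 13 months was far above its group for mt-Nd1, at 1357 K, mt-Nd4, at 819.3 K, mt-Nd4l, at 7.33 K, and mt-Rnr1, at 310.8 K. Replicate 3 of HEM at 3 months was far above its group for mt-Rnr1, at 173.0 K, and for the mt-Co2 share of mitochondrial mRNA, at 0.910%. Replicate 4 of HEM at 3 months had an mt-Nd4 share of 8.88%, above the others.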

How the results depend on the processing

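Every library was left out in turn, and other pseudocounts, filters, tools, scalings, covariates and a replicate block were tried; adding the reads of the chromosome 1 copy, leaving out the 3 libraries that stand apart, and all alternatives for nuclear lists were chosen after seeing the data. Members called stayed at 0 in both genotype comparisons and in the difference between them under every alternative run. By age in HEM, DESeq2 and voom called 6 each. By age in WT, DESeq2 called 14, voom 11 and the 2 groups alone 3, with 0 to 9 when 1 library was left out (9 without replicate 7 of HEM at 13 months). The share of all genes called in each of these fits is not given here. The causes were not tested.

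For HEM against WT at 13 months, some log2 estimates near 0 changed sign. mt-Nd3 was at 0.081 in edgeR with TMM, 0.079 with RLE, 0.079 in DESeq2, 0.058 in voom, 0.086 under scaling without mitochondrial transcripts, 0.042 under the block, 0.19 under the neutrophil and erythroid covariate, 0.026 without the 3 libraries and -0.17 to 0.16 with 1 left out. mt-Nd4l was at 0.024, 0.022, 0.022, 0.051 and 0.060 in the same first 5 settings, 0.057 under that covariate, 0.045 without the 3 libraries and -0.21 to 0.23 with 1 left out. Under that covariate mt-Co2 was at 0.049, mt-Co3 at 0.048 and mt-Tp at 0.10. mt-Atp8 was at -0.0039 under the neuron covariate and -0.12 to 0.14 with 1 library left out. By age in WT, mt-Tc was at 0.26 under the block and -0.61 to 0.22 with 1 library left out. The share of the 6 copied mRNAs by age in HEM differed by 0.81 percentage points with the copy's reads added, against 0.46.

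Nuclear subunits lower in HEM at 13 months numbered 0 under the block and 0 under the neutrophil and erythroid covariate, and 60 to 74 with 1 library left out; for the 9 machinery genes these were 0, 0 and 6 to 11. Nuclear subunits higher by age in WT, 15 in the report, numbered 7 without a filter, 28 with a filter of 50, 8 and 6 in edgeR with TMM and RLE, 59 in DESeq2, 66 in voom, 3 under scaling without mitochondrial transcripts, 2 in the 2 groups alone, 0 under the block, 0 under that covariate and 0 to 52 with 1 library left out. For none of these alternatives, in either comparison, is the share of all genes called given here.

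Correlations of same-numbered deviations were 0.107 and 0.126 between genotypes at 13 months, where other pairs of libraries ran from -0.204 to 0.265. They were -0.038 and 0.021 at 3 months, against -0.127 to 0.075, and -0.068 to 0.173 by age in HEM, against -0.168 to 0.234. WT ages shared no number. With 2 to 4 such pairs per comparison, these values cannot decide whether the numbers pair the libraries. With the replicate block 0 members were called, with 16 by age in HEM and 11 by age in WT at an unadjusted p under 0.05. The share of all genes under the block is not given here. The 20 tRNAs with low counts could not be tested.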
